A study of Mus musculus with 9 samples.

Results

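Lung organoids grown from smoke-exposed mice and taken at culture day 5 (CSD5) were compared with organoids grown from naïve mice and taken at culture day 14 (ND14). The members were chosen by their group labels, and the comparison uses 6 of the 9 arrays of the series, 3 per group. The other 3 arrays hold organoids of smoke-exposed mice at culture day 14 (CSD14) and are given beside the results as levels. The mice were adult male BALB/c, 8–12 weeks old, and were exposed to cigarette smoke or kept in clean air for 12 weeks. The right lung was minced, digested with enzymes and passed through a 70 µm strainer, and the cells were grown in Matrigel without a sort for any cell type, so the cultures could hold every lung cell that survived digestion. Medium with 5% fetal bovine serum was replaced after day 6 by differentiation medium with 2%, so CSD5 organoids were taken before this change and ND14 organoids after it. The paper describes the second medium as used with or without ROCK and TGF-β inhibitors, so inhibitor content may also have differed. Smoke exposure, culture day and medium therefore differed together and cannot be told apart in this comparison. Nothing in the sources used says that the 3 replicates of a group came from separate animals, so p-values here reflect only how far these samples vary.

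The alveolus is lined by flat type I (AT1) cells, which carry out gas exchange, and by cuboidal type II (AT2) cells, which secrete surfactant and divide to replace both types after injury. Airway epithelium holds basal, club, ciliated and mucous cells, and basal cells kept in culture can turn to a squamous program, in which layers of keratin, cornified envelope proteins and ceramide lipids form a barrier like that of skin. Cells that detect viral nucleic acid or interferon switch on a shared set of interferon-stimulated genes, and lung macrophages take up debris and secrete proteases that cut elastin and collagen.

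CSD5 replicate 1 stood apart from the other CSD5 arrays and close to the naïve ones. Over all transcript clusters it correlated at 0.991 on average with ND14, at 0.973 with its own group and at 0.963 with CSD14. For CSD5 replicate 2 the same values were 0.970, 0.983 and 0.982, and for CSD5 replicate 3 they were 0.964, 0.980 and 0.977. All arrays were kept. The counts over all genes are given with and without CSD5 replicate 1, an array that was singled out after its values had been seen. Many single-gene differences and list counts below are given only without this array. The labels alone place this array in CSD5, and nothing further was known about it. Array medians lay between 2.79 and 3.04 on the log2 scale, so a level near 3 is close to background and the size of a change from such a level is not exact. The organoids carried epithelial genes. Epcam, an epithelial adhesion molecule, was at 7.60 to 8.40 on the CSD5 and ND14 arrays, and Krt14, a basal keratin, at 10.93 to 11.50. Nkx2-1, the transcription factor that defines lung epithelium, was at 4.02 to 4.74. Endothelial and lymphocyte genes were near background, with list means of 2.70 to 3.06 over 20 endothelial genes and 2.45 to 2.58 over 19 lymphocyte genes.

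Values are log2 signals, 1 per gene, and a difference is the mean of CSD5 minus the mean of ND14. With all arrays in limma, 1 of 22180 genes was higher at a Benjamini-Hochberg adjusted p under 0.05 (0.00451% of genes) and 0 were lower (0%), while 3611 genes had an unadjusted p under 0.05. The study's thresholds ask for an unadjusted p under 0.05 and a change of more than 2-fold. By them, 233 genes were higher (1.05%) and 361 lower (1.63%). Arrays of the groups did not overlap for 1218 genes that were higher (5.49%) and 1978 that were lower (8.92%). By chance alone, 2 of the 20 orders of 3 arrays against 3 separate the groups, counting both directions. Lack of overlap is therefore weak support for any single gene. Without CSD5 replicate 1, 1021 genes passed the adjusted threshold as higher (4.6%) and 1747 as lower (7.88%). Median centring turned this balance, with 1561 higher and 1232 lower. All 594 genes at the study's thresholds were among the 2768 that passed without CSD5 replicate 1, in the same direction. The fits share every other array, and the array left out lay closest to ND14. This overlap is therefore not an independent check. Below, "rose" and "fell" are kept for genes that passed the adjusted threshold without CSD5 replicate 1. In that fit the CSD5 group is replicates 2 and 3, kept after the array that differed most from them was removed. Its spread, standard errors and p-values can therefore be too small. With all arrays kept, only 1 gene, Sftpc, passed this threshold, so the other genes said to rise or fall did not pass there. Differences carry the standard error of the fit they come from. Counts in gene lists are to be read against the 4.6% of all genes that rose and the 7.88% that fell. Counts from another fit without CSD5 replicate 1 are to be read against that fit's own totals among the 22180 genes. These were 1561 higher and 1232 lower after median centring, and 736 and 1116 with only the 6 arrays compared as the source. With a replicate block they were 811 and 1226. The median difference over all genes was -0.09 with all arrays and -0.13 without CSD5 replicate 1. Changes are to be read against that shift, which median centring of the arrays moved to 0.01 and 0.02.

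Sftpc, which encodes surfactant protein C and marks AT2 cells, was the gene that passed with all arrays, and it had the highest difference among the genes ranked. Its log2 level was 9.49, 11.29 and 11.49 on CSD5 replicates 1, 2 and 3, and 5.74, 5.79 and 5.79 on the ND14 arrays. Every CSD5 array lay far above every ND14 array, replicate 1 included. The difference was 4.98 (SE 0.43, limma adjusted p = 0.0206), a 31.6-fold higher level, and 5.62 (SE 0.17, limma adjusted p = 2.87e-07) without CSD5 replicate 1. The call did not survive the loss of any other single array, where the limma adjusted p lay between 0.0958 and 0.251. It was also lost in a fit of only the 6 arrays compared (limma adjusted p = 0.454) and with the replicate number as a block (limma adjusted p = 0.0616). On the CSD14 arrays Sftpc was at 4.55, 4.25 and 3.95, below each ND14 array. Bulk arrays cannot tell fewer cells of a type from less RNA per cell, here or in any gene that follows.

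Other genes with large differences on the higher side had smaller ones than Sftpc. Fmo6, a flavin monooxygenase family member, stood at 6.49, 9.04 and 9.03 in CSD5 and at 4.29, 3.92 and 3.78 in ND14, a difference of 4.19 (SE 0.56) with all arrays and 5.04 (SE 0.15) without replicate 1. A2ml1, a secreted protease inhibitor, stood at 8.34, 11.07 and 11.05 in CSD5 and at 6.28, 6.51 and 6.12 in ND14. Hp, the haemoglobin-binding acute phase protein haptoglobin, stood at 8.50, 10.22 and 10.37 in CSD5 and at 6.37, 6.75 and 6.23 in ND14. These genes were ranked among those without overlap, so the CSD5 arrays lay above the ND14 arrays by selection. Replicate 1 lay about midway between both sets. It was at 49.5%, 42.8% and 53.3% of the distance from the ND14 mean to the mean of CSD5 replicates 2 and 3. Apol9b, an apolipoprotein L family gene with a near-identical copy and therefore uncertain, and Stc1, which encodes the secreted glycoprotein stanniocalcin, were also among the 12 highest. Ranbp3l was at 6.22 and 6.10 on CSD5 replicates 2 and 3, 3.82 on replicate 1 and 2.07 to 2.39 in ND14.

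**Figure D1:**
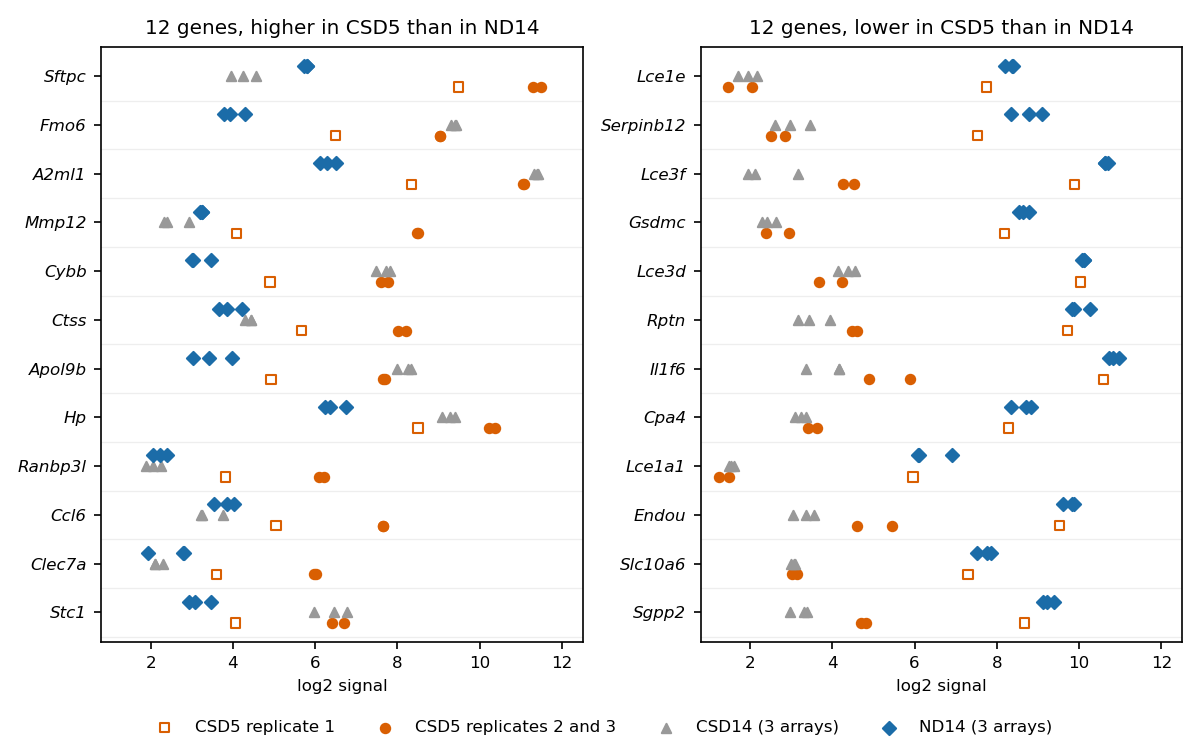
The log2 signal of the 12 genes with the highest and the 12 with the lowest differences between CSD5 and ND14, among genes at the study's thresholds whose arrays did not overlap. Each symbol is 1 array. For the higher genes the open square of CSD5 replicate 1 lies between ND14 and the other CSD5 arrays (Sftpc at 9.49 between 5.79 and 11.29), and for the lower genes it lies beside ND14 (Lce3d at 10.04 beside 10.06 to 10.11).

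AT2 genes were higher in CSD5 as a group. Of 26 AT2 and surfactant genes measured, 19 rose and 3 fell, beside 4.6% and 7.88% of all genes. At the study's thresholds 8 were higher and 0 lower, beside 1.05% and 1.63% of all genes, and the median difference was 0.98 against -0.13 over all genes (0.74 against -0.09 with all arrays). Muc1, a membrane mucin of AT2 and airway cells, stood at 8.59, 9.95 and 9.96 in CSD5 and at 7.30, 7.31 and 7.10 in ND14, a difference of 2.72 (SE 0.11) without replicate 1. Napsa, the aspartic protease that processes surfactant proteins, stood at 4.01, 5.91 and 5.90 against 3.24 on all 3 ND14 arrays. Slc34a2, the AT2 phosphate transporter, stood at 6.96, 8.46 and 8.47 against 6.17, 6.32 and 6.05. For these 3 genes no CSD5 array overlapped ND14.

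Surfactant genes moved with them. Sftpb, surfactant protein B, was at 5.62, 6.96 and 7.09 in CSD5 and at 4.78, 5.25 and 4.95 in ND14, and Lamp3, a lamellar body membrane protein, at 3.22, 4.75 and 4.32 against 2.52, 2.63 and 2.60. Sftpa1, surfactant protein A, was at 7.67 and 7.83 on CSD5 replicates 2 and 3, but at 5.78 on replicate 1, equal to the highest of its ND14 values (5.78, 5.32 and 5.62). Sftpd, Abca3, Lpcat1 and the transcription factors Etv5 and Nkx2-1 also rose. The 3 genes of the list that fell, Fabp5, Elovl1 and Slc26a9, encode a fatty acid binding protein, a fatty acid elongase and an anion transporter, and Fabp5 is also abundant in squamous epithelium (10.99 to 11.95 on these arrays). The mean level of the list was 0.39 above ND14 on CSD5 replicate 1, and 1.16 and 1.08 above it on replicates 2 and 3. On the CSD14 arrays it was 0.25 to 0.35 above ND14.

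AT1 genes did not move together, with 5 of 18 risen and 5 fallen (5 and 3 in a fit of only the 6 arrays compared). Pdpn, a membrane glycoprotein of AT1 and basal cells, was at 7.75, 9.83 and 9.36 in CSD5 and 6.93, 7.16 and 6.98 in ND14. Ager, the most restricted AT1 marker of the list, was at 5.58 and 6.38 on CSD5 replicates 2 and 3, while replicate 1, at 3.73, lay among the ND14 arrays (3.53, 3.52 and 4.12). Aqp5, a water channel, rose by 0.89 (SE 0.12), whereas Hopx, a homeodomain protein of AT1 cells, fell by 0.94 (SE 0.14). On the CSD14 arrays Pdpn was at 9.65 to 9.82 and Ager at 2.89 to 3.06, so the former lay near CSD5 and the latter below ND14.

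Among 22 club and secretory genes, 8 rose and 2 fell. Bpifa1, a secreted airway defence protein, was at 9.81, 11.32 and 11.03 in CSD5 and 9.26, 9.39 and 9.15 in ND14, with no overlap. Pigr, Reg3g, Agr2, Ltf, Cbr2 and Cyp2f2 rose with it and with Hp. Muc5ac, the gel-forming mucin of goblet cells, and Spdef, a goblet cell transcription factor, fell. Scgb1a1, the secretoglobin that defines club cells, was at 6.42, 6.63 and 6.63 in CSD5 and 6.22, 6.42 and 6.20 in ND14 and did not pass (limma adjusted p = 0.10 without replicate 1), but passed when the arrays were median centred (0.50, limma adjusted p = 0.0153). Of 23 ciliated cell genes 0 rose and 1 fell, and Foxj1, the ciliated cell transcription factor, was at 4.87 to 5.33 in CSD5 and 5.06 to 5.40 in ND14. Of 17 basal genes 4 rose and 5 fell (4 and 3 after median centring), and Trp63, the basal cell transcription factor, did not pass, with levels of 6.94 to 7.16 and 6.92 to 7.22.

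Interferon-stimulated genes were the group with the largest share of members that rose. Of 29 type I interferon response genes, 22 rose and 1 fell, 13 were higher and 0 lower at the study's thresholds, and the median difference was 1.16 (0.84 with all arrays). Oasl2, a member of the oligoadenylate synthetase family, was at 5.68, 7.31 and 7.45 in CSD5 and at 4.74, 4.78 and 4.41 in ND14, a difference of 2.74 (SE 0.14) without replicate 1. Zbp1, a sensor of Z-form nucleic acid, was at 5.16, 6.66 and 6.47 against 3.81, 4.64 and 3.85, and Usp18, which removes ISG15 from proteins, at 5.61, 7.31 and 7.07 against 5.18, 5.23 and 4.51. In these genes all 3 CSD5 arrays lay above all 3 ND14 arrays, with replicate 1 nearest to ND14.

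Isg15, a ubiquitin-like modifier, was at 8.12, 9.22 and 9.10 in CSD5 and 7.71, 7.74 and 7.66 in ND14. Bst2, or tetherin, which holds budding virus at the cell surface, was at 7.68, 9.01 and 9.06 against 7.09, 7.12 and 6.94. Ifit1, which binds viral RNA, was at 5.82, 6.74 and 6.77 against 5.27, 5.49 and 5.43. The transcription factors Irf7, Irf9 and Stat2 and the RNA sensors Ifih1 and Ddx58 rose as well. Oasl1, which in mice limits translation of Irf7, was the member that fell, from 6.76 to 7.06 in ND14 to 5.62 and 5.55 on CSD5 replicates 2 and 3, with replicate 1 at 6.87. Ifit3 (3.87 to 4.10 in CSD5) and Mx1 (3.38 to 3.64) did not pass and were near background. The list of interferon gamma and MHC class I genes held 25, of which 12 rose and 0 fell. B2m, the invariant chain of MHC class I, was at 8.92, 10.24 and 10.02 against 8.54, 8.60 and 8.72. On the CSD14 arrays the mean level of the type I list was 1.25 to 1.37 above ND14, beside 0.28 on CSD5 replicate 1 and 1.13 and 1.10 on replicates 2 and 3.

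The promoters of the type I list were searched for the interferon-stimulated response element, a short motif found near the start of many such genes. The letters searched were GAAA, any pair of bases and GAAA, on both strands, in windows from 250 bases before to 50 bases after each gene start, taken from RefSeq on GRCm38.p6. Of 29 genes in the list 20 had a window, and 10 of these held the letters, among them 8 of the 16 members with a window that rose or fell. Over all promoters the letters occurred in 1131 of 32851 windows (3.44%), or 1079 of 27025 genes (3.99%). The list was compiled from interferon response genes, so its share of matches does not bear on why they moved here. The share among members that rose or fell (8 of 16) was the same as in the list (10 of 20). A match is a description of the sequence, not a measured site. The windows of Isg15 (chr4:156200769-156201068, minus strand), Bst2 (chr8:71537423-71537722, minus strand) and Ifit1 (chr19:34640639-34640938, plus strand) are printed because they show repeated copies, with the matches in capitals, 5′ to 3′ along the gene.
Isg15: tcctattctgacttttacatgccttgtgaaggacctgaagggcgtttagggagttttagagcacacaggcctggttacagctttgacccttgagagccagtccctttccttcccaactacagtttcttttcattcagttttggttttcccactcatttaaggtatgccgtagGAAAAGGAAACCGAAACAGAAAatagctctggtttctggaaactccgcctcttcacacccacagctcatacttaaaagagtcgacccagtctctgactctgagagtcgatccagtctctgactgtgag
Bst2: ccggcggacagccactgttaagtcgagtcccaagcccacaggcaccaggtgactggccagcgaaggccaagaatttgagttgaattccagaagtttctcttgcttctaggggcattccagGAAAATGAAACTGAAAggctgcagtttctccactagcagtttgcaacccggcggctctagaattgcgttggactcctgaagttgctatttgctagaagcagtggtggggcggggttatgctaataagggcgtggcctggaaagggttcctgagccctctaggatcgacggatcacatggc
Ifit1: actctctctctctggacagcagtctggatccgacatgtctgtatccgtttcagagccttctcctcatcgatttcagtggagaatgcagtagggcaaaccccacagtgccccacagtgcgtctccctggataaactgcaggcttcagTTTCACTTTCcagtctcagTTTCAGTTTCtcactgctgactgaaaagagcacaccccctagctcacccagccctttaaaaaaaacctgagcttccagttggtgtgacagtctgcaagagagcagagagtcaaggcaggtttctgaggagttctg
Isg15 held 3 overlapping matches, which begin at bases -78 to -66 from the start. Bst2 held 2 that overlap each other, beginning at -130 and -124, and Ifit1 held 2 separate ones on the opposite strand, beginning at -104 and -85. Ifit3, which did not pass and is not printed, also held 2 matches, beginning at -156 and -122.

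Macrophage genes were higher on CSD5 replicates 2 and 3 and less so on replicate 1, but not the full set. Of 32 genes, 15 rose and 3 fell, 9 were higher and 2 lower at the study's thresholds, and the median difference was 0.58 (0.40 with all arrays). Mmp12, the macrophage elastase, was at 8.47 and 8.51 on CSD5 replicates 2 and 3, at 4.08 on replicate 1 and at 3.24, 3.20 and 3.24 in ND14, a difference of 5.26 (SE 0.17, limma adjusted p = 4.8e-07) without replicate 1 and 3.79 (SE 0.96, limma adjusted p = 0.20) with it. Ctss, the lysosomal protease cathepsin S, was at 5.67, 8.21 and 8.02 against 3.86, 4.21 and 3.67. Cybb, the catalytic subunit of the phagocyte NADPH oxidase, was at 4.90, 7.60 and 7.77 against 3.03, 3.47 and 3.01. All 3 lay higher on every CSD5 array than on any ND14 array, with replicate 1 at 16.2% of the distance for Mmp12, 41.8% for Ctss and 38.3% for Cybb.

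Clec7a and Clec4n, the fungal receptors dectin-1 and dectin-2, rose, as did Mpeg1, Tyrobp, Itgax, Msr1 and Csf1r. Csf1r, the receptor for macrophage colony-stimulating factor, was low throughout, at 3.75, 4.71 and 4.49 in CSD5 and 3.24, 3.59 and 3.34 in ND14. Other defining macrophage genes stayed at background. Marco, a scavenger receptor of alveolar macrophages, was at 2.62 to 2.75 in CSD5 and 2.60 to 2.77 in ND14, and Chil3, C1qb and C1qc lay between 2.07 and 3.14 on the 6 arrays. The 3 members that fell were Fabp4, Pparg and Cd68. Fabp4, a fatty acid binding protein, was at 9.0, 5.62 and 5.62 in CSD5 and 9.43, 9.16 and 9.56 in ND14, and Pparg, a nuclear receptor, at 6.19, 5.44 and 5.11 against 6.74, 6.92 and 6.73. The mean level of the macrophage list was 4.28 to 4.92 in CSD5 and 4.04 to 4.17 in ND14. On the CSD14 arrays it was 3.64 to 3.74, below ND14, although Cybb was at 7.47 to 7.82 there. Of 18 neutrophil and monocyte genes 4 rose and 4 fell.

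Chemokines rose in 10 of 32 cases and fell in 0. Ccl6 was at 5.05, 7.66 and 7.66 in CSD5 and at 3.86, 4.03 and 3.54 in ND14, with no overlap. Ccl3 was at 4.79 and 4.83 on CSD5 replicates 2 and 3 but at 2.10 on replicate 1, within the ND14 range of 2.02 to 2.24. Ccl2, which attracts monocytes, was at 3.14, 5.71 and 4.80 against 3.17, 2.69 and 3.07, so it too overlapped through replicate 1. Cxcl10, an interferon-induced chemokine, was at background on every array, 2.39 to 2.59 in CSD5 and 2.49 to 2.60 in ND14, and did not pass. Icam1, an adhesion molecule for leukocytes, rose by 0.99 (SE 0.12). The macrophage list moved with these genes, and its part in their levels was not tested.

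Proteases of the matrix rose beside them, in 8 of 25 cases with 0 fallen. Mmp3, or stromelysin, was at 7.43 and 5.73 on CSD5 replicates 2 and 3, and at 2.75 on replicate 1 against 2.59 to 2.98 in ND14. Mmp9, a gelatinase, was at 3.73, 5.36 and 4.95 against 3.52, 3.67 and 3.14. Mmp8, Mmp13, Mmp14, Mmp19 and the inhibitor Timp3 also rose. Of 26 collagens and matrix genes 4 rose and 0 fell, namely Tnc, Fn1, Plod2 and Bgn, and of 24 laminins and integrins 8 rose and 0 fell. Fn1, fibronectin, was at 6.84, 8.79 and 8.55 in CSD5 and 6.58, 6.65 and 6.33 in ND14. Lama5 and Lamb2, laminin chains of the basement membrane, rose by 1.36 (SE 0.16) and 1.45 (SE 0.32). Nid1, which links laminin to collagen in basement membranes, was at 2.78, 5.40 and 5.23 against 2.71, 2.90 and 2.80, so replicate 1 lay among the ND14 arrays. Col1a1, the main fibrillar collagen, was at 3.26 to 3.46 in CSD5 and 3.44 on all ND14 arrays and did not pass, and its sign was positive instead of negative after median centring.

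Of 27 fibroblast genes 4 rose and 1 fell, with a list mean of 3.44 to 3.64 in CSD5 and 3.35 to 3.46 in ND14. Dcn, the matrix proteoglycan decorin, was at 3.29, 6.63 and 4.99 against 3.02, 3.16 and 2.84. It was high on CSD5 replicates 2 and 3, and replicate 1 lay just above ND14.

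Striated muscle genes were higher on CSD5 replicates 2 and 3. Of 27 genes 12 rose and 1 fell, 4 were higher at the study's thresholds, and the median difference was 0.61 (0.49 with all arrays). Acta1, skeletal muscle actin, was at 9.08 and 8.72 on these arrays, and at 5.80 on replicate 1 against 5.92, 5.79 and 5.95 in ND14. Myog, the transcription factor of muscle differentiation, was at 2.41, 5.05 and 4.77 against 2.91, 2.63 and 2.92, and Myh1, a fast myosin heavy chain, at 2.50, 4.97 and 5.35 against 3.07, 3.18 and 3.04. Tnnc2, Neb, Ttn and Des rose with them. Replicate 1 lay within or below the ND14 arrays for Acta1, Myog and Myh1. Myod1, the factor that sets muscle identity, was at 3.53 to 4.0 in CSD5 and 3.78 to 4.07 in ND14 and did not pass. Tpm2, a tropomyosin also found in smooth muscle, was the member that fell. On the CSD14 arrays the list lay 0.16 to 0.31 below ND14. Muscle is not a cell type of the alveolus or its epithelium, and its part in the other differences of CSD5 replicates 2 and 3 was not tested.

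**Figure D2:**
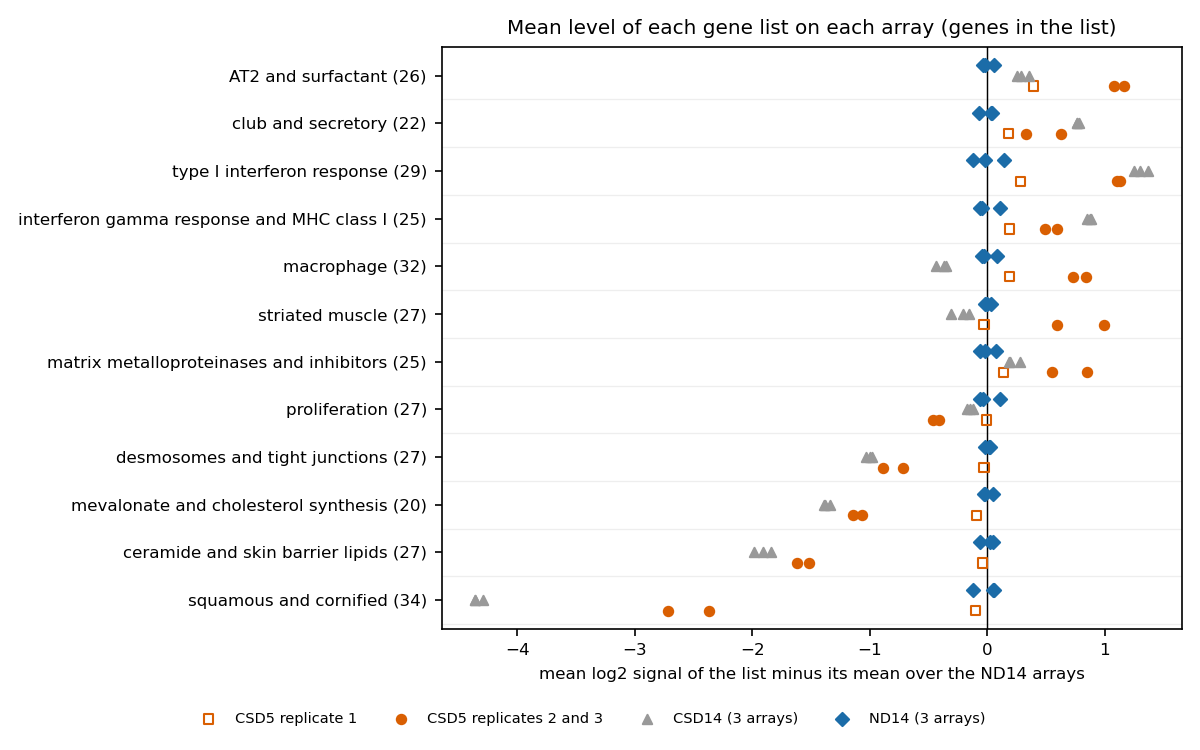
The mean log2 signal of 12 gene lists on each array, minus the mean of the same list over the 3 ND14 arrays. The open square of CSD5 replicate 1 lies at 0.39 for AT2 genes and 0.28 for type I interferon genes, partway to the other CSD5 arrays, and at -0.10 for squamous and -0.03 for striated muscle genes, beside ND14.

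The list with the most members that fell was the squamous program. Of 34 squamous and cornified genes, 30 fell and 1 rose, 24 were lower and 0 higher at the study's thresholds, and the median difference was -2.46 (-1.69 with all arrays). The 3 members that did not pass were Krt1, Flg (filaggrin) and Spink5, with differences of -0.18, -0.46 and 0.13 without replicate 1. Krt4 fell, but did not pass after median centring (limma adjusted p = 0.0581). The mean of the list was 9.14 to 9.31 on the ND14 arrays. Lor, loricrin, the main protein of the cornified envelope, was at 11.35, 11.40 and 11.55 in ND14 and at 7.43 and 7.40 on CSD5 replicates 2 and 3. Replicate 1, at 11.46, lay among the ND14 arrays. Rptn, repetin, was at 9.88, 9.82 and 10.26 in ND14 and at 9.72, 4.60 and 4.47 in CSD5.

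Late cornified envelope genes had the lowest differences among the genes ranked, and their levels are uncertain because near-identical copies can share signal. Lce1e was at 8.19, 8.36 and 8.39 in ND14 and at 7.75, 2.06 and 1.47 in CSD5, a difference of -6.55 (SE 0.19) without replicate 1 and -4.55 (SE 1.29) with it. Lce3d was at 10.11, 10.06 and 10.11 in ND14 and at 10.04, 3.69 and 4.23 in CSD5. CSD5 replicates 2 and 3 lay far below every ND14 array for both genes, and replicate 1 lay next to ND14. Serpinb12, a protease inhibitor of stratified epithelium, and Gsdmc, a gasdermin of pore-forming proteins, fell by 6.06 (SE 0.28) and 5.98 (SE 0.18). Keratins of activated epidermis fell too. Krt6b was at 11.24, 9.27 and 9.22 in CSD5 and 11.30, 11.24 and 11.28 in ND14, and Krt16 at 10.83, 9.49 and 8.92 against 11.02, 11.23 and 10.98. Ivl, involucrin, an early envelope protein, was the member that rose, at 5.86, 6.77 and 6.40 against 5.50, 5.78 and 5.52. The mean of the list on the CSD14 arrays was 4.29 to 4.36 below ND14, beside 2.37 and 2.72 below it on CSD5 replicates 2 and 3.

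Skin barrier lipid enzymes fell with the squamous genes. Of 27 ceramide and barrier lipid genes, 17 fell and 1 rose, with a median difference of -1.21 (-0.79 with all arrays). Abca12, which loads glucosylceramide into lamellar granules, was at 10.56, 6.77 and 6.54 in CSD5 and 10.55, 10.42 and 10.55 in ND14. Alox12b, a lipoxygenase that oxidises barrier ceramides, was at 10.78, 7.54 and 7.39 against 10.82, 10.56 and 10.85, and Cers3, a synthase of very long chain ceramides, at 9.23, 7.45 and 7.28 against 9.46, 9.52 and 9.41. Replicate 1 lay at the level of the ND14 arrays for Abca12 and Alox12b and just below them for Cers3. Sgms2, a sphingomyelin synthase, was the member that rose, by 1.36 (SE 0.14). Elovl4, an elongase of very long chain fatty acids, fell by 3.73 (SE 0.17), and the wider list of fatty acid synthesis and elongation held 4 genes that rose, Scd1 among them, and 7 that fell.

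Among 27 desmosome and tight junction genes 14 fell and 5 rose, and in a fit of only the 6 arrays compared 14 fell and 2 rose. Dsc1 and Dsg1a, cadherins of the desmosomes of upper squamous layers, fell by 4.83 (SE 0.18) and 2.77 (SE 0.19), and Dsg3, of the lower layers, by 1.61 (SE 0.11). Cldn1 and Cldn8, tight junction claudins, also fell. The 5 that rose were Pkp2 and Dsg2, desmosomal genes found in simple epithelium, and Tjp3, Cldn7 and Epcam.

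Sterol synthesis genes fell as a group. Of 20 mevalonate and cholesterol synthesis genes, 19 fell and 0 rose, 8 were lower at the study's thresholds, and the median difference was -1.11 (-0.74 with all arrays). After median centring 15 of the 20 fell, with a replicate block 15 and in a fit of only the 6 arrays compared 13, and 0 rose in each. Hmgcs1, the synthase that makes the substrate of HMG-CoA reductase, was at 9.61, 7.89 and 7.76 in CSD5 and 9.63, 9.59 and 9.53 in ND14, a difference of -1.76 (SE 0.11) without replicate 1 and -1.16 (SE 0.39) with it. Fdps, which makes farnesyl pyrophosphate, was at 10.52, 8.93 and 8.93 against 10.64, 10.61 and 10.62, and Sqle, the squalene epoxidase, at 10.04, 8.54 and 8.31 against 10.01, 10.16 and 9.99. Pmvk, the phosphomevalonate kinase, was at 7.81, 6.09 and 6.59 against 8.21, 8.02 and 8.33. Replicate 1 sat at or next to the ND14 level for Hmgcs1, Fdps and Sqle, and below it for Pmvk. Srebf2, the transcription factor of the pathway, and Insig1, which retains it in the endoplasmic reticulum, fell by 0.49 (SE 0.12) and 0.55 (SE 0.13), and neither passed after median centring. The mean of the list was 1.34 to 1.39 below ND14 on the CSD14 arrays.

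The letters TCAC, any base and CCAC, a form of the sterol regulatory element to which SREBP proteins bind, were searched in the same windows on both strands. Of 20 genes 16 had a window, and 1 of these, Hmgcs1, held them. Over all promoters they occurred in 408 windows (1.24%), or 388 genes (1.44%). The Hmgcs1 window (chr13:119690101-119690400, plus strand) is printed as the case that matched, with the match, which begins at base -137, in capitals.
Hmgcs1: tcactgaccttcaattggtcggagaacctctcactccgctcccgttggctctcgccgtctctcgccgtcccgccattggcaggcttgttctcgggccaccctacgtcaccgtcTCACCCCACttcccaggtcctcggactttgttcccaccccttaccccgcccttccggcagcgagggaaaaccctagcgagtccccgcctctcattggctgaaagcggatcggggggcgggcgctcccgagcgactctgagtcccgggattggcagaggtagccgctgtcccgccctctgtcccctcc

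Several cytokine and antimicrobial genes fell while acute phase genes rose. Of 24 genes of the interleukin 1 family and other cytokines, 7 fell and 1 rose. Il1f6, an agonist of the interleukin-36 receptor, was at 10.59, 5.88 and 4.90 in CSD5 and 10.96, 10.83 and 10.73 in ND14, and Il1f5, the antagonist of that receptor, at 8.02, 2.89 and 2.62 against 8.09, 7.77 and 8.40. Il1rn, Il18 and Il33 fell as well, and Csf3, the granulocyte growth factor, was the member that rose. Il1a, at 5.84, 5.89 and 4.44 against 6.02, 5.76 and 5.77, and Il1b, at 2.57 to 2.98 against 2.20 to 2.72, did not pass. Among 24 complement and acute phase genes 7 rose and 6 fell (7 and 3 in a fit of only the 6 arrays compared), and those that fell were the calprotectin subunits S100a8 and S100a9 and 4 defensins. Defb14, a beta-defensin with related copies, was at 10.47, 6.88 and 5.56 in CSD5 and 10.54, 10.57 and 10.44 in ND14. Saa3, serum amyloid A, was at 5.47, 7.61 and 7.06 against 3.95, 4.47 and 4.14, and Lbp, which presents bacterial lipopolysaccharide, at 8.34, 10.01 and 10.04 against 7.67, 7.80 and 7.57. Saa3 and Lbp did not overlap between groups, and on the CSD14 arrays they were at 7.92 to 8.08 and 10.18 to 10.26.

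Part of the cell cycle genes fell, by small amounts. Of 27 proliferation genes 8 fell and 0 rose, 0 were at the study's thresholds, and the median difference was -0.39 (-0.28 with all arrays). Mki67, the marker of cycling cells, was at 8.47, 8.11 and 8.26 in CSD5 and 8.44, 8.87 and 8.45 in ND14 and did not pass (limma adjusted p = 0.15 without replicate 1). Of 26 NRF2 and glutathione genes 10 fell and 1 rose, a split that median centring reduced to 6 and 2. Nqo1, a quinone reductase, was at 8.96, 8.0 and 7.62 against 9.17, 9.27 and 9.13, and Hmox1, haem oxygenase, at 8.05, 6.87 and 6.45 against 7.88, 8.23 and 8.08. Lung transcription factors split into 9 that rose, Foxa1, Elf3 and Nr2f2 among them, and 7 that fell, with Klf4, Grhl1 and Grhl3, factors of barrier differentiation, on the lower side. Nr2f2 was at 5.90, 7.07 and 7.28 against 5.48, 5.47 and 5.48. Of the kinase genes, Pik3r1, a regulatory subunit of PI3 kinase, rose by 1.21 (SE 0.13) and Mapk11, a p38 kinase, by 1.02 (SE 0.17), while Mapk13 and Mapk14, of the same p38 family, fell by 1.37 (SE 0.15) and 1.01 (SE 0.13).

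Retinoid genes also went both ways, with 4 of 26 risen and 6 fallen. Dhrs3, a reductase that returns retinaldehyde to retinol and is itself induced by retinoic acid, was at 7.60, 9.02 and 9.09 in CSD5 and 6.96, 7.15 and 6.73 in ND14, and Rarb, a retinoic acid receptor, at 3.30, 4.60 and 4.57 against 3.15, 3.22 and 2.91. Crabp2, which carries retinoic acid to its receptors, was at 9.95, 7.50 and 6.51 against 10.12, 10.10 and 10.03, and Rdh12, a retinol dehydrogenase, at 7.99, 5.65 and 5.42 against 8.55, 8.58 and 8.30. Dhrs3 and Rarb lay higher on every CSD5 array than in ND14, and Crabp2 and Rdh12 lower.

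Among 22 Toll-like receptor genes 5 rose and 2 fell. Tlr3, the receptor for double-stranded RNA, was at 5.77, 7.51 and 7.34 against 5.19, 5.31 and 4.75, and Cd14, a co-receptor for lipopolysaccharide, at 6.82, 8.20 and 7.87 against 6.36, 6.55 and 6.48, both without overlap. Of 24 phagocytosis and lysosome genes 10 rose and 0 fell. TNF and NF-kB targets held 5 of 28 that rose and 2 that fell, and TGF-beta targets 5 and 4 of 24. Of all genes, 4.6% rose and 7.88% fell. In the list of transitional alveolar epithelium, the state between AT2 and AT1 cells, 7 of 20 rose and 2 fell (4 and 2 in a fit of only the 6 arrays compared), and Krt19, a simple keratin, was at 7.44, 8.41 and 8.48 against 7.21, 7.13 and 7.32.

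**Figure D3:**
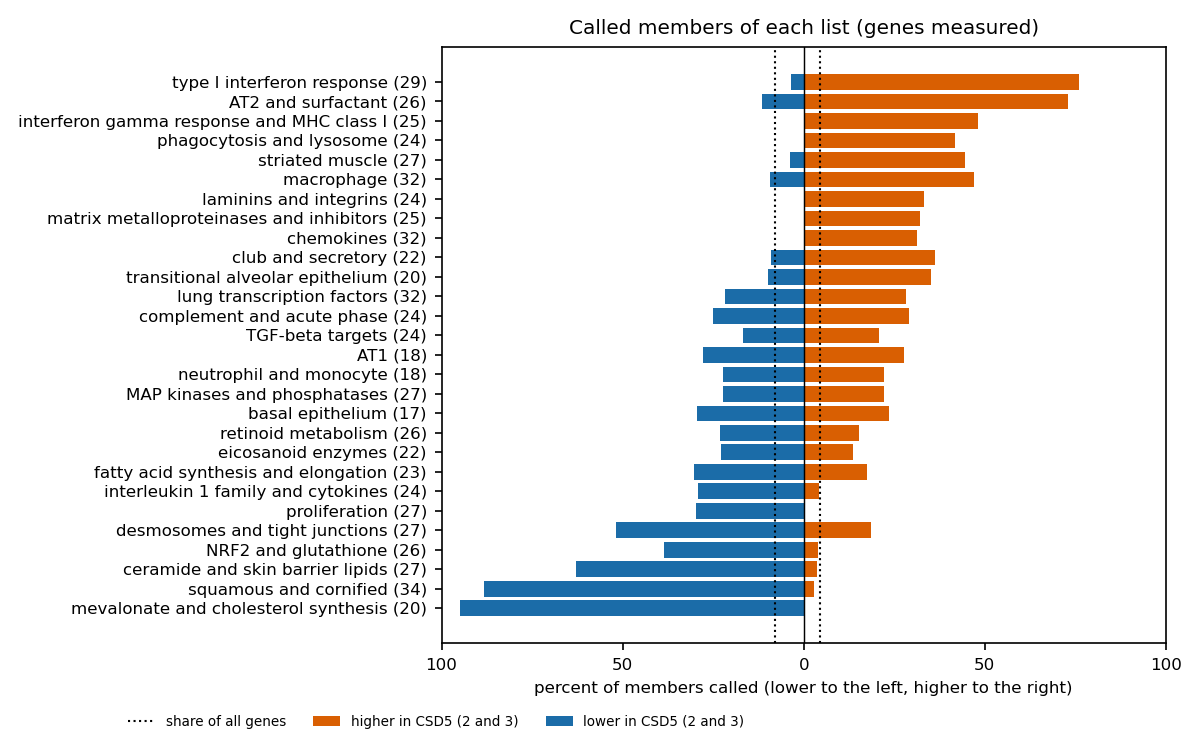
The percent of measured members that passed an adjusted p under 0.05 without CSD5 replicate 1, for the 28 gene lists with at least 8 such members, higher to the right and lower to the left of 0, with dotted lines at the shares of all genes (4.6% higher and 7.88% lower). The lists of type I interferon (22 of 29) and AT2 genes (19 of 26) reach furthest to the right, and sterol synthesis (19 of 20) and squamous genes (30 of 34) furthest to the left.

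The position of CSD5 replicate 1 between the groups depended on the gene. It was computed for the 1147 genes whose level differed by at least 1 on the log2 scale between ND14 and CSD5 replicates 2 and 3. The median gene put replicate 1 at 12.2% of the distance from ND14 to these arrays, with 756 genes under 20% and 46 over 50%. Among AT2 genes the median position was 31.1%, and Sftpc was at 66.2%. The median position was 4.4% for squamous, 6.1% for sterol and -10.4% for muscle genes, with Lor at -0.66%, Hmgcs1 at -1.5% and Acta1 at -2.9%. Every CSD5 array, replicate 1 included, lay below every ND14 array for 10 of 34 squamous and 9 of 20 sterol genes, beside 8.92% of all genes. The reverse held for 1 squamous and 0 sterol genes, beside 5.49% of all genes. The median position was 29.8% for macrophage genes, 31.5% for phagocytosis and lysosome genes and 29.0% for chemokines. The array therefore shared part of the rise of AT2, interferon, acute phase, macrophage and chemokine genes. It shared little of the change of squamous and sterol genes and none of the median change of muscle genes. These positions describe 1 array and carry no test.

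**Figure D4:**
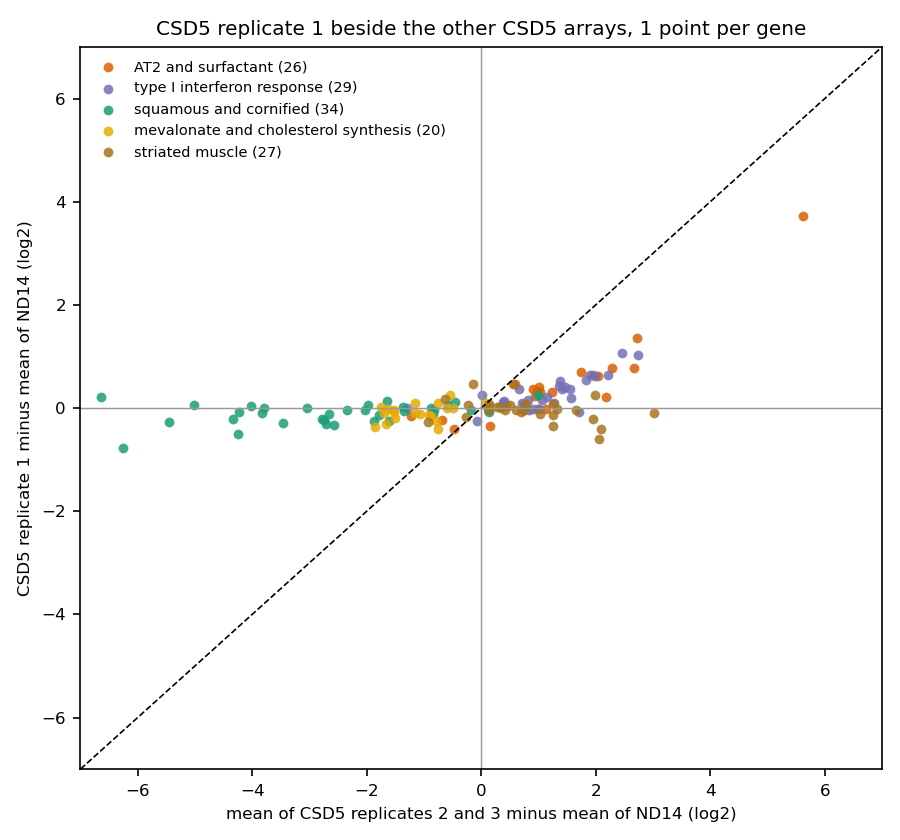
Each point is a gene of 1 of 5 lists. The horizontal axis gives its mean on CSD5 replicates 2 and 3 minus its ND14 mean, and the vertical axis the level on CSD5 replicate 1 minus the ND14 mean, both as log2. Points on the dashed line would be equal on all CSD5 arrays. Squamous and sterol genes lie along 0, while AT2 and interferon genes rise part of the way, with Sftpc at 9.49 against 5.79 in ND14 as the point at the upper right.

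The CSD14 arrays entered the fit only for its estimate of spread, and their levels are given here without a test. Among the genes that rose, Mmp12 (2.32 to 2.93), Ctss (4.29 to 4.44), Ccl6 (3.23 to 3.76), Clec7a (2.10 to 2.31) and Acta1 (4.61 to 5.74) were near or below their ND14 level on the CSD14 arrays. Fmo6 (9.30 to 9.43), A2ml1 (11.31 to 11.41), Muc1 (10.30 to 10.33), Oasl2 (7.63 to 7.69) and Bst2 (9.56 to 9.82) were there at or above the level of CSD5 replicates 2 and 3.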

How the data were processed

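Each of the 9 organoid samples was hybridised to 1 Affymetrix Mouse Gene 2.0 ST array. The authors processed the arrays with Transcriptome Analysis Console 4.0.3 and deposited a log2 signal for every transcript cluster. Its normalization algorithm is not given in the sources used here. Of 34472 transcript clusters, 23521 carried 1 gene symbol and named 22180 genes, and a gene with several clusters (1082 genes) was represented by the one with the highest mean over the 9 arrays. The values were used without scaling or filter.

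The 3 groups were fitted together on 9 arrays by limma 3.58.1 (R 4.3.3), p-values were adjusted by Benjamini-Hochberg over the whole table, and the fit was run again without CSD5 replicate 1. An exact test of 3 arrays against 3 cannot go below p = 0.1. The procedure was tested on simulated data. The text names the 12 highest and 12 lowest genes with all arrays, among those at the study's thresholds without overlap, or without CSD5 replicate 1, members of 41 gene lists (963 of 1030 entries measured), and 19 of 21 genes that the study names or stained. The ranking skipped predicted genes and small RNAs, and not every gene the rule takes is named. Members and lists were chosen with earlier results of these data known. Residuals of CSD5 and ND14 arrays with the same replicate number were close to uncorrelated (0.00, 0.00 and 0.05). Because CSD5 replicate 1 stood apart from its group, these values cannot exclude a pairing or a shared batch. The alternatives were a fit of the 6 arrays compared, array weights, a filter on dim clusters, the mean of a gene's clusters, median centring, quantile normalization, a trended robust fit, a replicate block, a lower fold threshold and leaving out each array. Promoter sequences came from RefSeq. Figures were drawn with matplotlib 3.10.9.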

Additional observations from a re-analysis of the deposited data

How the results depend on the processing

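The count of genes at an adjusted p under 0.05, 1 with all arrays, was 0 with only the 6 arrays compared, 0 with a replicate block and 4585 with array weights. It was 0 to 2768 when 1 array was left out, and 2768 was the value without CSD5 replicate 1. For Sftpc the limma adjusted p was 0.454 with the 6 arrays alone, 0.0616 with the replicate block and 2.6e-05 with array weights. The filter, the mean of clusters, median centring, quantile normalization and the trended fit each gave 1. The 594 genes at the study's thresholds (39.2% of them higher) became 1005 with array weights, 1582 at a fold over 1.5, 602 with median centring (290 higher and 312 lower), 592 with quantile normalization (285 and 307), and 304 to 1142 when 1 array was left out, where CSD5 replicate 1 gave the highest count when left out, CSD5 replicate 3 the lowest and CSD5 replicate 2 gave 346.

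The 2768 calls without CSD5 replicate 1 were 36.9% higher. Further settings were added after seeing the data. Median centring gave 2793 (1561 higher and 1232 lower), and the 6 arrays compared gave 1852 (736 and 1116). A replicate block gave 2037 (811 and 1226). No source used here says that samples with the same replicate number were paired.

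Of 3856 values of 227 named genes under the alternatives, 3413 kept direction and side of the threshold, 10, all of Sftpc, lost the call, 407 gained it and 26 changed sign. Those that changed sign were small. Cxcl10 became 0.05 with median centring and quantile normalization, Il1a ranged from -0.71 to 0.02 and Myod1 from -0.22 to 0.01 when 1 array was left out, Foxj1 became 0.10 and Cd3e 0.04 with array weights, and Pecam1 became 0.02 with both scalings. Marco became 0.05 with array weights, 0.09 with both scalings, and -0.05 to 0.04 when 1 array was left out. C1qb became -0.01 with array weights, and -0.08 to 0.18 when 1 array was left out. Trp63 became 0.07 with median centring, 0.09 with quantile normalization, and -0.09 to 0.06 when 1 array was left out, and Mx1 ranged from -0.02 to 0.13. Col1a1 became 0.04 with median centring, 0.03 with quantile normalization, and -0.09 to 0.01 when 1 array was left out. The cause was not tested. Of 738 list medians under the alternatives, 699 moved by less than the spread between replicates and 39 moved further. That spread was the standard deviation of the list means of the CSD5 arrays, replicate 1 included. It was wide where replicate 1 stood apart, at 1.42 for squamous genes. Their median of -2.46 without replicate 1, against -1.69 with all arrays, therefore counted as unmoved. The sign changed in 54 of the 738 medians. These belonged to 14 lists whose median with all arrays was at most 0.12 from 0. Among these lists were AT1 (0.03 with both scalings), basal (0.04 with quantile normalization), fibroblast, TGF-beta and TNF genes. Levels near the array medians limit the size of changes that can be measured.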
